A study of Mus musculus with 9 samples.

Results

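Cells recognise foreign or misplaced RNA through a small set of proteins, and 9 of the genes that encode them were followed here in ribosome profiles of Huntington disease (HD) cell lines. The genes were chosen by symbol: Ddx58 (the protein RIG-I), Ifih1 (MDA5), Dhx58 (LGP2), Mavs, Tlr3, Zbp1, Adar, Eif2ak2 (PKR) and Ikbke (IKK-epsilon). These are 9 of the 36410 gene rows in the deposited table, and each symbol had 1 row. In HD-homo cells, footprints of 7 of the 9 genes rose against control cells and those of Tlr3 fell, where 23.3% of all genes tested rose and 22.3% fell. In HD-het cells footprints of 4 rose and those of Adar and Eif2ak2 fell, where 31.0% of all genes rose and 29.1% fell.

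Ribosome profiling counts the short pieces of mRNA that a ribosome shields from nuclease, so each count is a ribosome-protected fragment (RPF) assigned to a gene. Control cells (STHdhQ7/Q7) carry Htt alleles with 7 glutamine repeats, HD-het cells (STHdhQ7/Q111) carry 1 allele with 7 and 1 with 111, and HD-homo cells (STHdhQ111/Q111) carry 111 on both. All are immortalized striatal cells of mouse embryos, and all were treated with cycloheximide, which arrests elongating ribosomes, for 10 min before lysis. RNase T1 and RNase A cut the unprotected RNA, the monosome fraction was taken from a sucrose gradient, and fragments of 26 to 32 nt were sequenced. Each line was cultured in 3 independent rounds, giving 3 libraries per line and 9 in all, with 22504543 to 41888701 counts each. Every genotype was 1 cell line, so genotype and line cannot be told apart. The HD-het and HD-homo comparisons with control share the 3 control libraries. The values are footprint abundances and not RPF/mRNA ratios, and in bulk lysates fewer cells with a transcript and less of it per cell cannot be told apart.

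RIG-I and MDA5 are helicases of the cytosol that bind double-stranded RNA, RIG-I at ends that carry a triphosphate and MDA5 along long duplexes. LGP2 is a related helicase that lacks the signalling domains and modulates the others. RIG-I and MDA5 pass the signal to MAVS on the mitochondrial surface, and from there the kinases TBK1 and IKK-epsilon act on the transcription factors that switch on type I interferon. TLR3 recognises double-stranded RNA in endosomes, and ZBP1 binds RNA or DNA in the left-handed Z form and can start necroptosis through RIPK3 and MLKL. ADAR1, the product of Adar, edits adenosine to inosine in double-stranded RNA, and PKR shuts down translation by phosphorylating eIF2alpha when it meets such RNA. Many of these genes are themselves induced by interferon, through factors that bind the interferon-stimulated response element (ISRE).

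Replicates of 1 line resembled each other more than they resembled another line, with a correlation of log2 counts across genes of at least 0.9882 within and at most 0.9301 between lines. Of 10 markers of striatal neurons, the dopamine receptors Drd1 and Drd2 had 0 counts in all 9 libraries, and the signalling protein gene Ppp1r1b was the highest at 120 to 427 counts. The precursor marker Vim was abundant in every library, whereas Nes, another, was at 145 to 275 counts in HD-homo libraries against 8173 to 42718 in the others. Sox2 and Pax6 were likewise low in HD-homo cells (2.263 and 0.0759 CPM, against at least 33.93 and 17.32 in the other lines), whereas Dlx1 and Dlx2 were highest there (4.021 and 19.92 CPM). CPM are counts divided by the TMM-scaled library total and scaled to 1e+06. Of 12 markers of microglia and macrophages, which carry many RNA sensors, Cx3cr1, C1qa, C1qb and Tyrobp were at 0 in every library. Their summed level ran from 5.04 to 6.912 CPM in control, from 18.86 to 27.04 in HD-het and from 4.817 to 6.208 in HD-homo cells, and Tmem119 made up most of it. Csf1r had means of 0.3386, 0.3801 and 1.058 CPM in the lines, with 37, 19 and 32 counts in HD-homo libraries, and 6 of the 12 markers were at 0 in all control, 6 in all HD-het and 8 in all HD-homo libraries. The part of these cell differences in the results that follow was not tested.

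Against this background the calls of the 9 genes are read beside those of all 12678 genes that passed the filter on low counts. A gene was called when its adjusted p in edgeR was under 0.05. In HD-het against control cells, 4 of the 9 genes were called higher and 2 lower, where 31.0% and 29.1% of all genes were called higher and lower. The libraries of both lines did not overlap for 7 of the 9, against 71.2% of all genes. In HD-homo against control cells 7 were called higher (23.3% of all genes) and 1 lower (22.3%), and the libraries did not overlap for 9 of 9 (55.5% of all genes). In HD-homo against HD-het cells 7 were called higher (34.6%) and 1 lower (32.8%), with 8 of 9 not overlapping (69.5%). The median log2 fold change of the 9 genes was 0.17, 2.19 and 0.99 in these comparisons, and that of all genes 0.02 in each. All 9 genes passed the filter, which asked for about 0.377 CPM in at least 3 libraries, but Dhx58 and Zbp1 did so through HD-homo libraries alone and Ifih1 reached that level in no control library, so a difference was built into their passing.

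**Figure D1:**
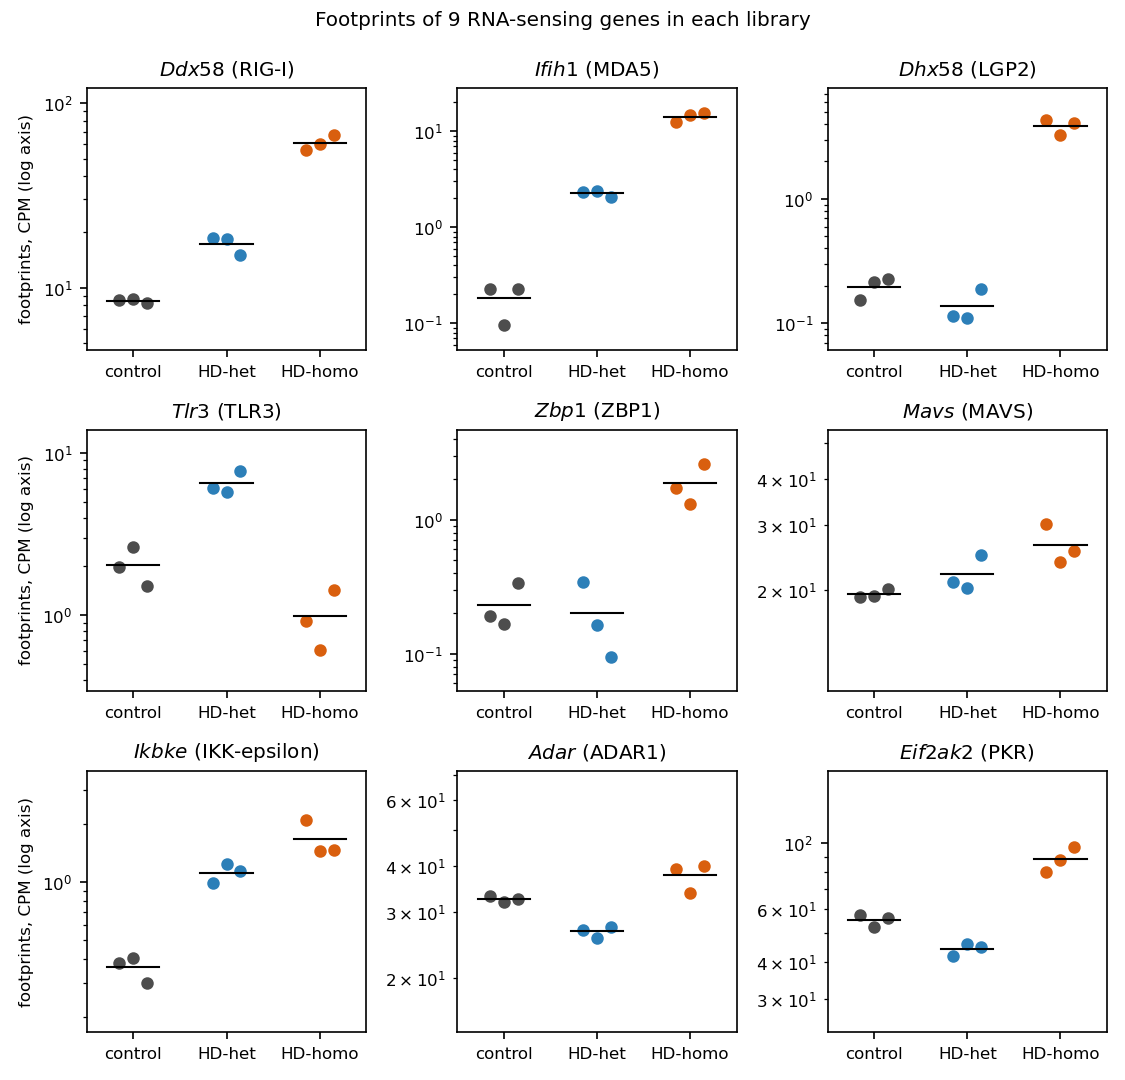
Footprint level of each gene in each library, in CPM on a log axis whose range differs between panels; points are the 3 libraries of a line and black lines their means. Ddx58, Ifih1 and Ikbke stepped up from control through HD-het to HD-homo, Dhx58 and Zbp1 stood high in HD-homo alone, and Tlr3 was highest in HD-het and lowest in HD-homo.

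The RIG-I-like receptors were examined first. Ddx58 lies on chromosome 4 (40203777 to 40239825, minus strand, GRCm38.p6). It was read at 8.592, 8.634 and 8.275 CPM in control, 18.56, 18.23 and 14.94 in HD-het and 55.45, 60.25 and 66.73 in HD-homo libraries. No library of 1 line reached into the range of another, and the order was control, HD-het, HD-homo. The mean doubled to 17.24 ± 2.00 CPM (SD, n = 3) in HD-het cells and stood at 60.81 ± 5.66 (SD, n = 3) in HD-homo cells. Against control, this was a log2 fold change of 1.02 (SE 0.11, edgeR adjusted p = 1.731e-05) for HD-het and 2.84 (SE 0.11, edgeR adjusted p = 6.538e-09) in HD-homo cells. HD-homo cells also exceeded HD-het cells, by 1.81 (SE 0.11, edgeR adjusted p = 9.893e-08).

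Ifih1 (chromosome 2, 62595618 to 62646255, minus strand) moved the same way over a wider range. Control libraries held only 6, 4 and 6 counts, whereas HD-het libraries held 62, 86 and 44 and HD-homo libraries 446, 385 and 351. These were 0.183 ± 0.0764, 2.266 ± 0.161 and 14.23 ± 1.64 CPM (SD, n = 3 each), again without overlap. Control cells were thus close to the limit of detection for Ifih1, where 3 counts equal 0.07135 to 0.1146 CPM. HD-het cells exceeded control by a log2 fold change of 3.71 (SE 0.27, edgeR adjusted p = 1.099e-06). HD-homo cells exceeded it by 6.35 (SE 0.23, edgeR adjusted p = 3.605e-09), which is 81.4-fold, with a log2 interval of 5.83 to 6.86. Between the mutant lines it was 2.64 (SE 0.16, edgeR adjusted p = 1.448e-07).

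The balance between these receptors shifted along the lines. Per kilobase of coding sequence, Ddx58 footprints outnumbered Ifih1 footprints 41.51, 100.5 and 40.59 times in control libraries. The ratio was 8.73, 8.534 and 7.95 in HD-het and 4.949, 4.531 and 4.746 in HD-homo libraries. The 3 lines did not overlap in this ratio, though the control values rest on 4 to 6 Ifih1 counts.

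Dhx58, encoding LGP2 (chromosome 11, 100694884 to 100704271, minus strand), did not follow the first step. It held 4, 9 and 6 counts in control, 3, 4 and 4 in HD-het and 155, 85 and 92 in HD-homo libraries. Control and HD-het libraries overlapped, and only the HD-homo libraries stood apart. Means were 0.1975 ± 0.0392, 0.1376 ± 0.0446 and 3.88 ± 0.558 CPM (SD, n = 3 each). In HD-homo cells the log2 fold change was 4.25 against control (SE 0.25, edgeR adjusted p = 1.449e-07) and 4.84 against HD-het (SE 0.28, edgeR adjusted p = 7.491e-08). In HD-het cells it was -0.58 (95% interval -1.50 to 0.33, edgeR adjusted p = 0.3189), an interval that leaves out a rise of the size seen for Ddx58 or Ifih1. The antisense transcript Dhx58os, which overlaps the gene, had a maximum of 0 counts.

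Ddx58, Ifih1 and Eif2ak2 are known interferon targets that rose in HD-homo cells. Their promoters are shown because they hold the letters of the ISRE core. The windows are RefSeq promoters of build GRCm38.p6, 250 bases before to 50 after the transcription start, written 5′ to 3′ on the gene's strand. Capitals mark the core searched, which is GAAA, any 2 bases and GAAA, on either strand. The windows of Tlr3, which fell in HD-homo cells, and of Ikbke, which rose there, are shown as ones without the core. Since the first 3 windows were picked because they hold it, the display does not show that the core goes with a rise.
Ddx58, chr4:40239776-40240075, minus strand: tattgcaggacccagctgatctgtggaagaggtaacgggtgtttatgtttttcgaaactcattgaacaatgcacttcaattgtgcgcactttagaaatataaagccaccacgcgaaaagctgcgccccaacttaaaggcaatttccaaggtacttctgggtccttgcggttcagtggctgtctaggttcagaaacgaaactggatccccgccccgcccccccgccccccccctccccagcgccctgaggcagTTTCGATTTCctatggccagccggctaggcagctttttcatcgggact
Ifih1, chr2:62646206-62646505, minus strand: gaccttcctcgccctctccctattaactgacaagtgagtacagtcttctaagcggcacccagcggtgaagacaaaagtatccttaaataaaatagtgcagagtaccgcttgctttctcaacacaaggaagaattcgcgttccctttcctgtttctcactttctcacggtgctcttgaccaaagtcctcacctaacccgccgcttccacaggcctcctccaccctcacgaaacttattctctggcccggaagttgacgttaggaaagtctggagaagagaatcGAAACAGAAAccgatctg
Eif2ak2, chr17:78882523-78882822, minus strand: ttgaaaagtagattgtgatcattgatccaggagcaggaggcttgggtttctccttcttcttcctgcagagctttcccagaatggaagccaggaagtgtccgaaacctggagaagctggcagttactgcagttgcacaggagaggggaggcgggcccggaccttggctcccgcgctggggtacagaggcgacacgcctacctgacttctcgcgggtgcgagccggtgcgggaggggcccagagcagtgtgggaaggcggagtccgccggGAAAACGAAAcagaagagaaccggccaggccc
Tlr3, chr8:45410331-45410630, minus strand: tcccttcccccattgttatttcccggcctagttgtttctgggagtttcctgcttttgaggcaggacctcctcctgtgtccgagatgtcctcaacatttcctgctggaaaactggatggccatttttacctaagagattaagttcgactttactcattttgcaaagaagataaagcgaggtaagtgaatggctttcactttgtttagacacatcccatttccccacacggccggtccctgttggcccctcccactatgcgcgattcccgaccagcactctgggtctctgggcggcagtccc
Ikbke, chr1:131279514-131279813, minus strand: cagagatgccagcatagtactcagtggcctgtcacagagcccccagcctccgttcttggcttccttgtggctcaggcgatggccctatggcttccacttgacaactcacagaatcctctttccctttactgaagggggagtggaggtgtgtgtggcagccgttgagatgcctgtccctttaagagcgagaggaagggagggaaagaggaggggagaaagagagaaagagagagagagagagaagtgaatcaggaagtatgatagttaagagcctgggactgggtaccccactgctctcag

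With the start counted as base 1, the core lay at bases 3 to 12 in Ddx58 (on the opposite strand), 33 to 42 in Ifih1 and 19 to 28 in Eif2ak2. RefSeq promoters were matched for 7 of the 9 genes (9 windows, 3 of them of Adar), but not for Dhx58 and Zbp1. The core was found in 3 of these 7 genes and in 3.44% of all 32851 promoters of this length. The interferon-gamma activated site, searched as TTC, any 3 bases and GAA on both strands, occurred in Eif2ak2 (bases -178 to -170) and in the window of the most downstream Adar start (23 to 31), and in 8.3% of all promoters. The hits of these motifs did not overlap. Mavs and Ikbke also rose in HD-homo cells, and their windows, like that of Tlr3, held neither string. A match of letters is a description and does not show that a factor binds.

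Next, the endosomal receptor and the Z-form sensor were compared. Tlr3 (chromosome 8, 45395665 to 45411075, minus strand) was read at 1.986, 2.616 and 1.505 CPM in control libraries. In HD-het libraries it was read at 6.072, 5.747 and 7.753 CPM, and in HD-homo libraries at 0.9178, 0.6116 and 1.419. It was thus the only one of the 9 genes that was highest in HD-het cells, with every HD-het library above every other library. From control, Tlr3 rose by 1.65 on the log2 scale in the HD-het line (SE 0.25, edgeR adjusted p = 0.0001901), and the HD-homo line differed by -1.10 (SE 0.30, edgeR adjusted p = 0.01115). Between the mutant lines it was -2.74 (SE 0.28, edgeR adjusted p = 6.291e-06). The call against control in HD-homo cells rested on 16 to 33 counts per library, and without control replicate 2 it was lost (log2 fold change -0.85, edgeR adjusted p = 0.05983).

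The same order of lines was seen in the microglial marker Tmem119 (means of 5.427, 21.18 and 4.392 CPM), the endothelial marker Kdr (0.4223, 1.747 and 0.2987) and the precursor marker Nes (399.5, 1086 and 7.012). Of the other microglial markers in HD-het libraries, Csf1r held 6, 16 and 10 counts, P2ry12 7, 5 and 8, and Ptprc 2, 8 and 6. Aif1 and Itgam held at most 1 count there, and Cx3cr1, C1qa, C1qb, C1qc, Tyrobp and Fcer1g were at 0. Among the other endothelial markers, Cdh5 was highest in control cells (0.3268, 0.198 and 0.2443 CPM). Tek held 4, 0 and 3 counts in HD-het libraries, where Pecam1 and Cldn5 were at 0. The precursor marker Pax6 had the order of Nes. Sox2, Vim and Msi1 were highest in control cells, and Dlx1 and Dlx2 were lowest in HD-het cells. The part of these cell markers in the Tlr3 result was not tested. Ticam1, which encodes TRIF, the adaptor that TLR3 signals through, was at 3.32, 3.238 and 3.811 CPM, and no comparison of it passed the threshold. Its log2 fold change in HD-het cells was -0.03 (95% interval -0.44 to 0.39, edgeR adjusted p = 0.9099). The antisense transcript Gm45542 overlaps the 5′ part of Tlr3, and use of strand in the counting is not given in the sources used here.

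Zbp1 (chromosome 2, 173206612 to 173218959, minus strand) had the fewest counts of the 9 genes. It held 5, 7 and 9 counts in control, 9, 6 and 2 in HD-het and 62, 34 and 59 in HD-homo libraries. As for Dhx58, control and HD-het libraries overlapped and the HD-homo libraries lay above all others. HD-homo cells had a log2 fold change of 3.03 against control (SE 0.40, edgeR adjusted p = 9.316e-05) and 3.17 against HD-het (SE 0.42, edgeR adjusted p = 4.539e-05). In HD-het cells it was -0.14, with a 95% interval from -1.39 to 1.11 (edgeR adjusted p = 0.8437). That interval holds the rise seen for Ddx58 in HD-het cells, near its upper end, so a rise of that size was not excluded.

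The partners of ZBP1 in necroptosis were higher in both mutant lines. Ripk3, its kinase partner, held 7, 12 and 4 counts in control, 19, 35 and 28 in HD-het and 2224, 1612 and 1456 in HD-homo libraries. Its log2 fold change against control was 2.01 for HD-het (SE 0.28, edgeR adjusted p = 0.0001096) and 7.99 for HD-homo cells (SE 0.20, edgeR adjusted p = 3.064e-10). Mlkl, whose product breaches the cell membrane once RIPK3 has phosphorylated it, rose from 1.044 CPM to 12.34 (HD-het) and 54.77 (HD-homo), by 3.60 (SE 0.25, edgeR adjusted p = 7.888e-07) and 5.76 (SE 0.25, edgeR adjusted p = 1.194e-08). In HD-het cells, then, Ripk3 and Mlkl footprints rose while those of Zbp1 did not pass the test. Casp8, the protease that restrains necroptosis, was at 54.92, 57.05 and 50.69 CPM, with no comparison past the threshold.

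MAVS, the shared adaptor of RIG-I and MDA5, varied far less than its receptors. Mavs (chromosome 2, 131234063 to 131248025, plus strand) was read at 19.21, 19.34 and 20.12 CPM in control, 21.06, 20.32 and 24.87 in HD-het and 30.17, 23.78 and 25.45 in HD-homo libraries. Every mutant library lay above the control libraries, and HD-het and HD-homo libraries overlapped. Mavs differed from control by a log2 fold change of 0.17 in HD-het cells (95% interval -0.08 to 0.42, edgeR adjusted p = 0.2083) and 0.44 in HD-homo cells (SE 0.11, edgeR adjusted p = 0.008255). Between the mutant lines it was 0.27 (SE 0.11, edgeR adjusted p = 0.05549). That last comparison passed when totals alone set the scale (0.35, edgeR adjusted p = 0.01385), without HD-het replicate 3 (0.36, edgeR adjusted p = 0.01791) and without HD-homo replicate 2 (0.34, edgeR adjusted p = 0.0215).

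By their means, Mavs and Ddx58 exchanged rank. Per kilobase of coding sequence, Mavs had 4.116 to 4.477 footprints for each of Ddx58 in control, 2.052 to 3.064 in HD-het and 0.7021 to 1.002 in HD-homo libraries, and the ranges did not overlap. The highest HD-homo value, 1.002 in replicate 1, was a tie.

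Ikbke encodes IKK-epsilon, the inducible kinase downstream of MAVS (chromosome 1, 131254600 to 131279601, minus strand). The antisense transcripts Gm28914 and Gm28913 overlap Ikbke, and whether their reads were counted to the gene was not tested. Ikbke had few counts. It held 10, 17 and 8 counts in control, 26, 45 and 24 in HD-het and 75, 38 and 33 in HD-homo libraries. The corresponding means were 0.3624 ± 0.0544, 1.12 ± 0.126 and 1.667 ± 0.363 CPM (SD, n = 3 each), and no lines overlapped. Against control it rose by 1.61 on the log2 scale in the HD-het line (SE 0.27, edgeR adjusted p = 0.0003488) and by 2.19 in the HD-homo line (SE 0.25, edgeR adjusted p = 3.444e-05). The step between the mutant lines was small, 0.58 (SE 0.22, edgeR adjusted p = 0.03503), and its call was lost in 8 of 15 alternatives, among them without HD-homo replicate 1 (0.37, edgeR adjusted p = 0.1683).

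Tbk1, whose product is the constitutive kinase of the same step, moved otherwise, at 62.42, 46.32 and 55.94 CPM. It fell by 0.43 on the log2 scale in HD-het cells (edgeR adjusted p = 0.001677), and in HD-homo cells its difference from control was -0.16 (edgeR adjusted p = 0.1774). The number of Tbk1 footprints for each Ikbke footprint, both per kilobase of coding sequence, was 150.6 to 198.9 in control, 36.74 to 48.16 in HD-het and 27.22 to 41.13 in HD-homo libraries. Both mutant lines lay below control, and they overlapped each other. Tbk1 in HD-homo cells exceeded the HD-het level by 0.27 (edgeR adjusted p = 0.01918). Its size changed little in the fits that lost this call, at 0.25 without HD-het replicate 3 (edgeR adjusted p = 0.05712), 0.21 without HD-homo replicate 2 (edgeR adjusted p = 0.05782) and 0.24 with only the 6 libraries compared (edgeR adjusted p = 0.07762).

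Adar and Eif2ak2, whose products edit double-stranded RNA and respond to it, were abundant in all lines and fell in HD-het cells. Adar (chromosome 3, 89714469 to 89753455, plus strand) was read at 33.15, 32.01 and 32.65 CPM in control, 26.79, 25.63 and 27.42 in HD-het and 39.19, 33.83 and 40.04 in HD-homo libraries. All HD-het libraries lay below, and all HD-homo libraries above, the control libraries. Against control, Adar fell in the HD-het line (log2 fold change -0.29, SE 0.09, edgeR adjusted p = 0.01332) and differed by 0.21 in the HD-homo line (SE 0.09, 95% interval 0.02 to 0.40, edgeR adjusted p = 0.07081). The latter did not pass, although it did with totals alone as the scale (0.24, edgeR adjusted p = 0.04904) and without HD-homo replicate 2 (0.28, edgeR adjusted p = 0.01601). HD-homo exceeded HD-het cells by 0.50 (SE 0.09, edgeR adjusted p = 0.0003681). The interferon-inducible and the constitutive isoform of ADAR1 share most exons and 1 row, so they cannot be told apart here. Chrnb2, which overlaps Adar on the opposite strand, held at most 2 counts in any library. Adarb1, which encodes the related editing enzyme ADAR2, fell in both mutant lines, from 10.64 CPM to 6.698 for HD-het (log2 fold change -0.67, edgeR adjusted p = 0.002105) and 4.719 for HD-homo cells (-1.16, edgeR adjusted p = 7.32e-05).

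Eif2ak2 (chromosome 17, 78850504 to 78882572, minus strand) had the most footprints of the 9 genes per length of coding sequence. It was read at 57.58, 52.33 and 56.01 CPM in control, 41.86, 45.95 and 44.72 in HD-het and 79.84, 87.5 and 96.89 in HD-homo libraries. The lines did not overlap, and HD-het was lowest and HD-homo highest. HD-het cells differed from control by -0.32 on the log2 scale (SE 0.09, edgeR adjusted p = 0.009029), and HD-homo cells by 0.67 (SE 0.09, edgeR adjusted p = 9.664e-05). Between the mutant lines it was 0.99 (SE 0.09, edgeR adjusted p = 2.542e-06), close to a doubling. A 5S ribosomal RNA annotation, n-R5s29, lies within Eif2ak2 on the opposite strand. Whether its fragments were counted to the gene was not tested.

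The other kinases of eIF2alpha varied. Eif2ak1 (HRI) was at 33.61, 27.96 and 36.71 CPM, with a log2 fold change of -0.26 in HD-het cells (edgeR adjusted p = 0.03252), a call lost in 7 of 16 alternatives, and 0.13 in HD-homo cells (edgeR adjusted p = 0.3029). Its order of lines was that of Eif2ak2, and HD-homo exceeded HD-het cells by 0.39 (edgeR adjusted p = 0.003582). Eif2ak3, the kinase PERK of the endoplasmic reticulum stress response, went the opposite way to Eif2ak2 in HD-het cells, by 0.92 (SE 0.16, edgeR adjusted p = 0.0004538), and was at 0.33 in HD-homo cells (edgeR adjusted p = 0.1138). Eif2ak4 (GCN2) was at 19.21, 18.54 and 17.85 CPM, and none of its comparisons passed. Dnajc3, encoding the PKR inhibitor P58IPK, rose in HD-het cells from 69.14 to 152.3 CPM (1.14 on the log2 scale, SE 0.15, edgeR adjusted p = 7.529e-05), the line in which Eif2ak2 fell, and was at 68.46 CPM in HD-homo cells.

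**Figure D2:**
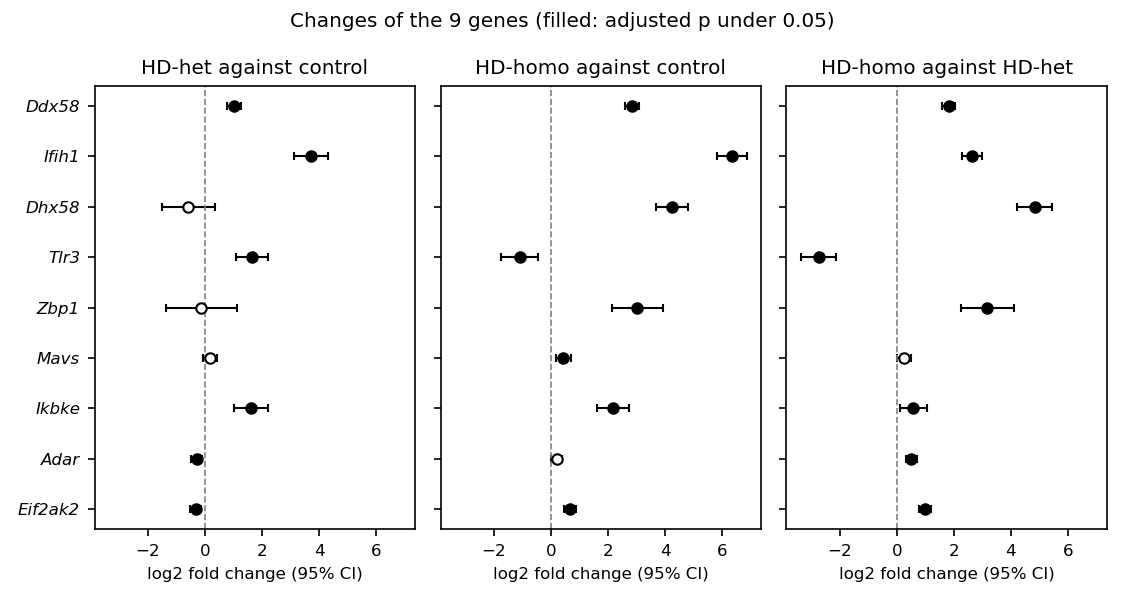
Log2 fold changes of the 9 genes in each comparison with 95% confidence intervals from edgeR (n = 3 libraries per line); filled points have an adjusted p under 0.05. Tlr3 lies right of 0 in HD-het and left of 0 in HD-homo cells, Eif2ak2 the reverse, and the intervals of Dhx58 and Zbp1 are wide in HD-het cells, where counts were few.

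Set side by side on the scale of CPM per kilobase of coding sequence, the genes kept some ranks and exchanged others. Eif2ak2 led in each line, with 35.8 (control), 28.59 (HD-het) and 57.01 (HD-homo). In control cells Mavs (12.96), Adar (9.226), Ddx58 (3.06) and Tlr3 (0.7497) followed, and none of the remaining 4 genes exceeded 0.2746 in any library. Of neighbours in that order, Zbp1 and Ikbke overlapped, and Dhx58 (0.07509 to 0.111) and Ifih1 (0.03094 to 0.07451) all but touched. In HD-het cells Ifih1 (0.7369) had passed Zbp1 (0.1625) and Dhx58 (0.0677), and Ikbke (0.5205), already above Dhx58 in control cells, stood clear of both. Only Zbp1 and Dhx58 overlapped among the neighbours there. In HD-homo cells Ddx58 was second at 21.89, with 19.96 to 24.02 against 15.76 to 20 for Mavs, so that these 2 ranges just overlapped. Ifih1, last in control cells at 0.0596, stood after Adar in HD-homo cells at 4.627, and Tlr3 was last there at 0.362. Dhx58 (1.907) and Zbp1 (1.525) overlapped in HD-homo cells. The summed level of the 9 genes was 115.8 to 121.5 CPM in control, 118.1 to 123.2 in HD-het and 226.1 to 254.3 in HD-homo libraries, so the control and HD-het sums overlapped while their composition differed.

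**Figure D3:**
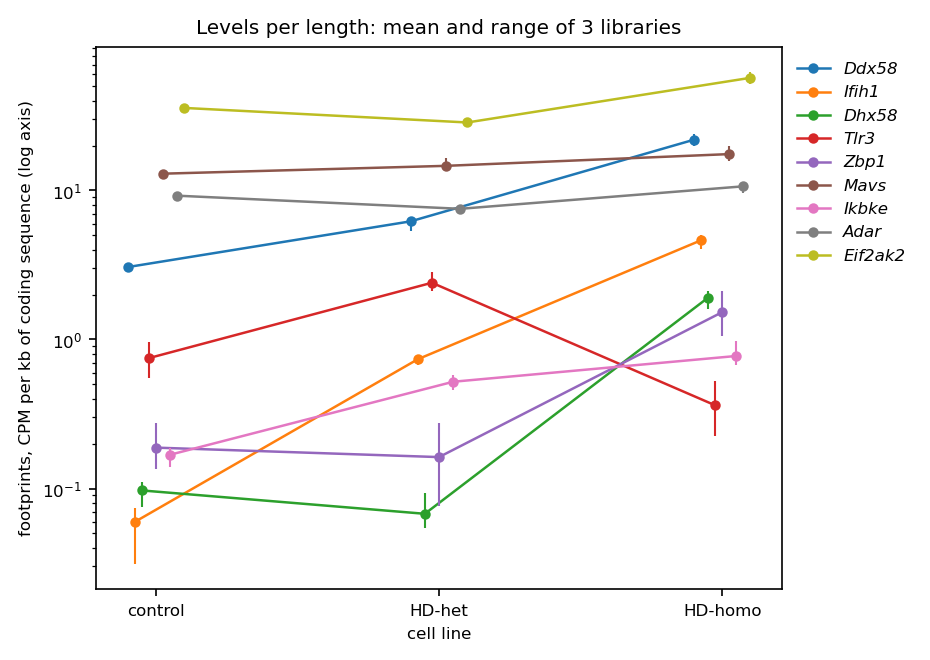
Footprints per kilobase of coding sequence (CPM per kb, log axis) of the 9 genes in each line; points are means and vertical bars the range of 3 libraries. Ifih1 climbs from 0.0596 in control to 4.627 in HD-homo cells, whereas Mavs moves between 12.96 and 17.54.

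The genes around these sensors were described with a list of 68 ligases, cofactors, adaptors, kinases and interferon pathway genes, of which 62 passed the filter. Unc93b1 and Ddx60 reached the filter level in HD-homo libraries alone. Irf7, Ripk3, Rnf125 and Nlrc5 reached it in no control library, and Nlrx1 and Tbkbp1 in no HD-homo library. A difference was thus built into the passing of these genes. In HD-het cells 17 were called higher and 17 lower than control (54.8% of those tested, against 60.1% of all genes), and in HD-homo cells 22 higher and 9 lower (50%, against 45.7%). Their median log2 fold changes were 0.10 and 0.13, near the 0.02 of all genes. Between the mutant lines 28 were higher and 17 lower in HD-homo cells (72.6%, against 67.5%). With both directions pooled, the list was thus called about as often as genes in general. By direction, the 22 higher and 9 lower calls in HD-homo cells stood where 23.3% of all genes were higher and 22.3% lower. Called changes of at least 2-fold there were 13 higher and 2 lower, against 1134 and 1048 of all 12678 genes. Between the mutant lines they were 14 higher and 6 lower, against 1403 and 2057. The lean of the list was not tested.

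Among the ligases and cofactors of the RIG-I-like receptors, Trim25 stood out. Trim25 encodes a ubiquitin ligase that has been tied to activation of RIG-I, and it held 100, 148 and 93 counts in control, 2, 3 and 4 in HD-het and 992, 636 and 619 in HD-homo libraries. HD-het cells had almost no Trim25 footprints (log2 fold change -5.01 with SE 0.24, edgeR adjusted p = 5.266e-08), and it is the line in which Ddx58 had doubled. In HD-homo cells Trim25 rose (2.87, SE 0.13, edgeR adjusted p = 1.287e-08). Rnf125, a ligase that marks RIG-I for degradation, held 3, 2 and 0 counts in control, 26, 35 and 26 in HD-het and 27, 19 and 9 in HD-homo libraries, so that HD-het cells stood at least 10.64-fold and HD-homo cells at least 6.28-fold higher than a floor of 3 counts per control library. Ddx60, a helicase described as a cofactor of RIG-I, had 0 counts in each control library and 2, 0 and 1 in HD-het libraries. HD-homo libraries held 38, 22 and 32 counts of Ddx60, with a mean CPM 11.1-fold that of a floor of 3 counts per control library. Tarbp2, encoding the dsRNA-binding protein TRBP that inhibits PKR, fell from 33.28 to 10.95 CPM in HD-het cells (-1.60, edgeR adjusted p = 3.266e-06) and was at 32.98 in HD-homo cells. Zc3hav1, the antiviral zinc-finger protein ZAP, rose in HD-homo cells by 1.38 on the log2 scale (edgeR adjusted p = 5.485e-08). Trim65, a ligase that acts on MDA5, fell there by 1.07 on the same scale (edgeR adjusted p = 0.001858).

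Downstream of MAVS, Irf7, an interferon-inducible factor that drives interferon genes, rose from 0.1536 CPM to 0.837 for HD-het (log2 fold change 2.49, edgeR adjusted p = 0.0008728) and 4.988 for HD-homo cells (5.04, edgeR adjusted p = 1.265e-06). Tank, a scaffold of TBK1 and IKK-epsilon, was called in HD-homo cells (1.37, edgeR adjusted p = 1.42e-06) and not in HD-het cells. Nlrc5 was called in HD-homo cells (1.64, edgeR adjusted p = 0.03478), but in 5 of the 9 fits that left out 1 library, those without any of the control replicates or without HD-homo replicates 2 or 3, it was not. Between the mutant lines Tradd, an adaptor that binds MAVS, was higher in HD-homo cells (1.01, edgeR adjusted p = 1.125e-05), while Nlrx1 (-1.996), Tbkbp1 (-1.44) and Traf5 (-1.15) were lower. The HD-homo libraries held only 5, 2 and 7 counts of Nlrx1 and 11, 3 and 3 of Tbkbp1, whose value ranged to -2.10, reached without HD-homo replicate 1. Zcchc3, a cofactor of the receptors, was lower too (-1.10).

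Of the endosomal receptors and their adaptors other than Tlr3, Tlr7, Tlr8, Tlr13 and Ticam2 did not pass the filter. Unc93b1, the chaperone that brings TLR3 to endosomes, rose in HD-homo cells by 4.19 on the log2 scale (SE 0.50, edgeR adjusted p = 4.435e-05), the line in which Tlr3 itself fell. It held 5, 3 and 0 counts in control, 7, 8 and 5 in HD-het and 69, 48 and 23 in HD-homo libraries, and over the alternatives the value ran from 3.71 to 5.08, the last without control replicate 1. Myd88, the adaptor of the other endosomal receptors, exceeded its HD-het level in HD-homo cells by 1.06 on the log2 scale (edgeR adjusted p = 1.727e-06). Of the interferon pathway, Irf9 rose in both mutant lines, from 1.759 CPM to 5.972 (1.75, edgeR adjusted p = 2.469e-05) and 19.61 (3.47, edgeR adjusted p = 9.311e-08). Stat2, whose product binds that of Irf9, was higher in HD-homo cells by 1.37 (edgeR adjusted p = 5.996e-06). Ifnar1, a chain of the interferon receptor, was higher in HD-het cells by 1.01 (edgeR adjusted p = 2.491e-05). Ifnb1, the interferon gene itself, held at most 1 count in any library and was not tested.

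**Figure D4:**
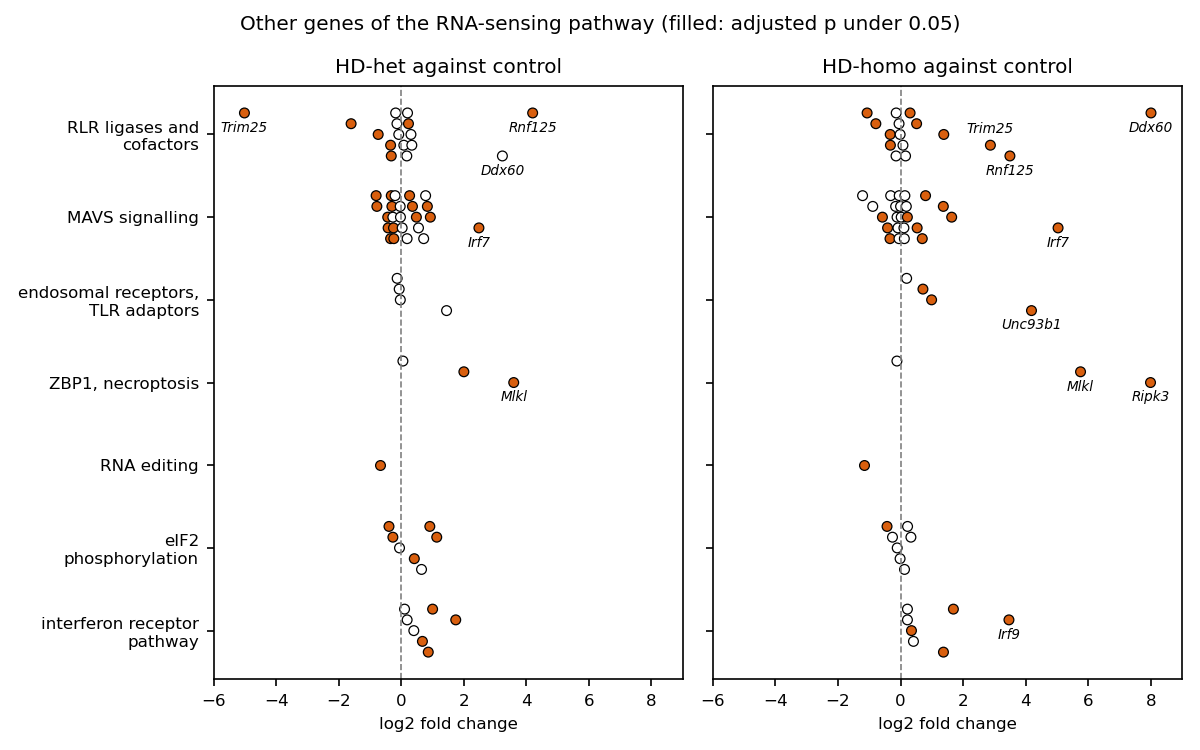
Log2 fold changes against control of the tested genes of the pathway list, by role (x axis, log2; filled points have an edgeR adjusted p under 0.05; names are given where the change exceeds 2.2 on the log2 scale). Both panels share the control libraries, and the points of Ddx60 and Rnf125 are fitted values against 0 to 3 control counts per library and not bounds. Trim25 lies far left in HD-het and right in HD-homo cells, and Ripk3 at 7.99 and Ddx60 lie farthest right in HD-homo cells.

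Lastly, the genes whose levels over the 9 libraries most resembled each of the 9 were listed, by Pearson correlation of log2 CPM with up to 8367 genes of at least 10 CPM in some line. The points share their libraries and fall into 3 lines, so the coefficients only describe the order of the lines. Ddx58 was closest to Cavin2 (r = 0.9962), which went from 15.23 to 54.56 and 646.5 CPM. Ifih1 was closest to Gga2 (r = 0.9957), Dhx58 to Ddr2 (r = 0.9966) and Zbp1 to Ogfr (r = 0.9857). Tlr3 was closest to Mmp16 (r = 0.9922), Ptprg and Itgb1, the last of which stood at 2682, 7440 and 1555 CPM. Mavs (Tor2a, r = 0.9761), Adar (Mrpl15, r = 0.9893), Eif2ak2 (Ifrd1, r = 0.9931) and Ikbke (Gm2a, r = 0.9872) each had other nearest genes, so no gene led for more than 1 of the 9.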

How the data were processed

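Ribo-seq libraries of 3 mouse striatal lines (3 per line) were analysed from the table of raw RPF counts per gene symbol that the authors deposited, 1 column per library, not normalized or pooled. The submitters' processing notes name cutadapt, Bowtie 1.0.1 and build mm10. The counting program, annotation and strand are not given in the sources used here, so reads of overlapping genes cannot be separated. Totals ran from 22504543 to 41888701 counts, and 3 counts, the limit a count of 0 allows, equal 0.07135 to 0.1418 CPM. The floor covers counting error only, and edgeR intervals include the spread between libraries. Groups came from the sample titles.

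Counts were tested with edgeR 4.0.16 (limma 3.58.1, R 4.3.3): TMM factors, filterByExpr by group, a quasi-likelihood fit of all 9 libraries, and Benjamini-Hochberg adjustment over 12678 genes with a threshold of 0.05, 2-sided. The study states no count test, so the standard one was used. The scripts were tested on simulated data. CPM were divided by TMM-scaled totals; coding lengths are the longest coding sequence in mouse GENCODE release M21, since protein sequences were not used here, and coordinates and promoters are from RefSeq (GRCm38.p6).

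The 9 genes, the list of 68 genes, the markers and the tests were chosen with earlier results of these data known. Named from the list were genes past the threshold with at least a 2-fold change, and those that share a direct step with 1 of the 9 (Casp8, Ripk1 and Fadd were added after their values were seen, and 1 gene that met the rule is not reported here); for likeness, the 3 highest correlations. Alternatives were RLE factors, totals alone, DESeq2 1.42.0, an unfiltered table, a minimum of 10 counts in every library, only the 6 libraries compared, a replicate block, and leaving out each library.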

Additional observations from a re-analysis of the deposited data

Results flagged for a closer look

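In 6 genes of the 9 and the pathway list the mutant lines moved to opposite sides of control, each past the threshold. The mutant lines also differed from each other for these 6, but this follows from picking genes with opposite calls in the same fit and adds no support. Calls against control were common, at 60.1% of all 12678 genes for the HD-het line and 45.7% for the HD-homo line. Genes with opposite calls were not counted over all genes, so whether 6 is unusual was not tested. The log2 fold change of HD-homo against HD-het cells was -2.74 for Tlr3 and -0.82 for Fadd, which were higher than control in HD-het and lower in HD-homo cells. It was 0.99 for Eif2ak2, 0.51 for Ripk1, 1.01 for Tradd and 7.88 for Trim25, which were lower than control in HD-het and higher in HD-homo cells. Tradd moved by -0.32 (edgeR adjusted p = 0.02945) and 0.69 (edgeR adjusted p = 0.0003456) against control, and the first call was lost without control replicates 1 or 2 or HD-het replicates 2 or 3, at -0.32 to -0.29. Fadd moved by 0.49 (edgeR adjusted p = 0.004112) and -0.34 (edgeR adjusted p = 0.04073). Ripk1 moved by -0.30 (edgeR adjusted p = 0.005715) and 0.22 (edgeR adjusted p = 0.03488). The HD-homo call of Fadd was lost in 7 of 16 alternatives (-0.38 to -0.29 over all 16), among them without any 1 of the control or HD-homo replicates, and that of Ripk1 in 10 of 16 (0.18 to 0.25), among them without any 1 of the control or HD-het replicates. Leaving out control replicate 2 ended the HD-homo call of Tlr3 (-0.85, edgeR adjusted p = 0.05983).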

How the results depend on the processing

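Of 418 recomputed log2 fold changes of the 9 genes, 401 kept their direction and side of the threshold, 9 lost the call, 5 gained it and 3 changed sign. Those 3 belong to Zbp1 in HD-het cells, which was not called and ranged from -0.70 to 0.19 when libraries were left out, with values of 0.19, 0.02 and 0.09 when control replicate 3, HD-het replicate 2 or HD-het replicate 3 was absent. With at least 10 counts required in every library, only 5 of the 9 genes were tested, and the number called higher became 2 in HD-het against control, 3 in HD-homo against control and 3 in HD-homo against HD-het cells. The number called lower in HD-homo against control cells ranged from 0 to 1 when libraries were left out, since Tlr3 lost its call without control replicate 2. Of 1085 values of the other pathway genes, 1044 kept direction and call. Uncalled Ticam1 changed sign in HD-het cells (0.0028 with at least 10 counts, and from -0.23 to 0.077 when libraries were left out), as did Eif2ak4 between the mutant lines with totals alone (0.025). No pairing of libraries by replicate number was seen: correlations of same-numbered deviations ran from -0.3561 to 0.1745, with 1 of 9 above 0.1. Deviations from a mean of 3 libraries carry much noise of single libraries, so this check cannot exclude rounds shared between lines. With the replicate block, Ikbke between the mutant lines had 0.57 (edgeR adjusted p = 0.0554), and 4 and 7 of the 9 genes were still called higher in HD-het and HD-homo against control cells. Depth limits Zbp1, Dhx58, Ikbke and Ifih1 most, with 2 to 17 counts in some libraries.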
